A study of Mus musculus with 18 samples.

Results

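The collagen chain genes are the genes on the array whose symbol is Col, a type number, the letter a and a chain number. They numbered 42 of the 18193 genes measured. Only probe sets with 1 gene symbol were read, and of the 82 collagen probe sets the one with the highest mean stood for its gene. They comprised 11 fibrillar chains, 8 basement membrane chains, 9 chains of the FACIT class (collagens that attach to the surface of fibrils) and 14 others. The others were the type VI, VII, VIII and X chains, the transmembrane collagens and Col26a1. Of the 42, 18 had a mean at or above that of the median gene on the array and 24 were below it.

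Collagens are built from chains that wind around each other into a helix, so the ratio in which the chains of a type are made decides which molecules can form. In lung, fibrillar collagens of fibroblasts give the airway wall and the interstitium their tensile strength, while type IV collagen forms the sheet that alveolar epithelium and capillary endothelium share. The α3, α4 and α5 chains of type IV replace part of the α1 and α2 network in the alveolar and glomerular basement membranes. Types XV and XVIII sit at the outer face of basement membranes, and the C-terminal piece of type XVIII is released as endostatin.

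The study measured RNA of B6C3F1/N mouse lung and lung tumors on Affymetrix 3′ expression arrays. The mice were 5 to 6 weeks old at the start, and the inhalation study exposed males and females of this hybrid strain to antimony trioxide aerosol (Sb2O3) at 0, 3, 10 or 30 mg/m3. Animals breathed it 6 hours daily, 5 days of each week, through as many as 105 weeks. Tumors were cut out of the surrounding lung and frozen, and 100 ng of total RNA was amplified for each array. CONTROL samples were lung of vehicle control animals, SPONT samples were spontaneous lung tumors, and TREATED samples were tumors of animals given antimony trioxide, named alveolar/bronchiolar carcinomas in the study title. The labels do not give the sex, dose or animal of a sample, so p-values measure the spread between samples, some of which may share an animal.

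Each group had 6 arrays. CONTROL replicate 5 and SPONT replicates 5 and 6 stood apart: their median correlation with the other arrays was 0.301 to 0.476, against 0.920 to 0.973 for the other 15, and the SD of their log2 values was 1.27 to 1.48, against 2.35 to 2.45. The values below rest on the 15 other arrays (5 CONTROL, 4 SPONT, 6 TREATED), and the fit to all 18 is given beside each called member and for the counts. With all 18 the sign of the difference from control turned for 3 of the 42 members in spontaneous and 14 in antimony trioxide tumors, none of which was called in either fit. All levels are log2 intensities, and differences are tumor minus control on the log2 scale with the SE of the fit.

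Cell markers were counted as higher or lower than control at an adjusted p under 0.05 in limma. Of all genes 20.1% were higher and 12.9% lower in SPONT, and 23.8% and 15% in TREATED. Over 18 arrays these shares were 0.973% and 3.19% in SPONT and 2.98% and 4.44% in TREATED. Of 6 alveolar type 2 cell markers 5 were higher in both tumor groups, but over 18 arrays 0 in SPONT and 1 in TREATED. Sftpc, which encodes surfactant protein C, averaged 14.2 in all 3 groups. Markers of collagen-making and vessel cells moved the other way. All 9 lung fibroblast markers were lower in both tumor groups: their mean level per array was 10.6 to 10.9 in CONTROL, 7.03 to 8.06 in SPONT and 6.35 to 8.31 in TREATED. Over 18 arrays 6 of the 9 were lower in each. All 5 smooth muscle markers were lower in both (3 and 4 over 18 arrays). Of 8 endothelial markers 7 were lower in SPONT and 8 in TREATED (3 in each over 18 arrays), with mean levels of 11.1 to 11.7 in CONTROL, 8.38 to 9.43 in SPONT and 8.24 to 9.46 in TREATED. Among 8 myofibroblast and pericyte markers 4 were lower in SPONT and 6 in TREATED, but Cthrc1, a secreted protein of matrix-making fibroblasts, was higher by 2.46 ± 0.60 and 1.79 ± 0.54. Over 18 arrays 2 of the 8 were lower in SPONT and 1 in TREATED, and 0 were higher. Of 6 alveolar type 1 markers 3 were lower in SPONT and 2 in TREATED (0 and 1 over 18 arrays). Of 5 mesothelial markers 1 was lower in each, and all 5 ciliated cell markers in both, with the same counts over 18 arrays. The 3′ to 5′ difference of the Gapdh probe sets, a measure of RNA quality and amplification, was 1.84 to 2.21 in CONTROL, 1.11 to 1.40 in SPONT and 1.09 to 1.97 in TREATED. In bulk tissue fewer cells of a type and less RNA per cell cannot be told apart. The part of these shifts in the collagen results was not tested.

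Several type IV genes lie head to head, transcribed away from each other, and their start regions are shown because the members of such a pair could be compared in the same samples. The regions are 250 bases before to 50 after the start of the gene named on each line (RefSeq, GRCm38.p6), read 5′ to 3′ on its strand. Capitals mark CCAAT and GGGCGG on either strand (ATTGG and CCGCCC on the other); TATAAA was searched too and is in none of the 4.
Col4a1: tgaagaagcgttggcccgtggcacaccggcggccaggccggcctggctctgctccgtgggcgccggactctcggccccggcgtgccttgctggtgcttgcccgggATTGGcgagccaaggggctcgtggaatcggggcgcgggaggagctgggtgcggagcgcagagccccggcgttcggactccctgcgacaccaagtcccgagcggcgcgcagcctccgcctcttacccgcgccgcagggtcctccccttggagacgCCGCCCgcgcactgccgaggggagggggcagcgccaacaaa
Col4a4: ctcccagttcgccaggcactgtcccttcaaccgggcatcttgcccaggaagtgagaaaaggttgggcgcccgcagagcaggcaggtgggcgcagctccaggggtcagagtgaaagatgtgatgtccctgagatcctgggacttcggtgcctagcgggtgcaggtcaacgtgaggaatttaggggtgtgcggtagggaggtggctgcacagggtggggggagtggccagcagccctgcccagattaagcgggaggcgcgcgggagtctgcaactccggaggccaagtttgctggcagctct
Col4a5: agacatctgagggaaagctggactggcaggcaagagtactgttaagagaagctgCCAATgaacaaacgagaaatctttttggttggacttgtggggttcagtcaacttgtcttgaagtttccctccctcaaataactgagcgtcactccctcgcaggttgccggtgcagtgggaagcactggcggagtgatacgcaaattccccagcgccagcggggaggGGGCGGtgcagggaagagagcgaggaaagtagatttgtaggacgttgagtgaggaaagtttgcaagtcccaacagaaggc
Col4a6: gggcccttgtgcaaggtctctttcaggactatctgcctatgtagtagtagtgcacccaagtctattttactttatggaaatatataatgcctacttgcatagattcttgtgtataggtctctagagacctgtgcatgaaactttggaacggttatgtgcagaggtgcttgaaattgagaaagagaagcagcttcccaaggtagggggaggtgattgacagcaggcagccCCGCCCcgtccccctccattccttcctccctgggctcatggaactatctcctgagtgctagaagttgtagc
The first covers chr8:11312777-11313076 on the minus strand, and the start of Col4a2 on the opposite strand is at its base 272. That is 21 bases past the start of Col4a1, so these genes overlap at their starts. The second covers chr1:82586800-82587099 on the minus strand and holds the start of Col4a3 at base 179, 72 bases before that of Col4a4, with no overlap. The third, chrX:141475169-141475468 on the plus strand, and the fourth, chrX:141474027-141474326 on the minus strand, have starts 1343 bases apart. Start regions were at hand for 33 of the 42 members (36 regions, since some genes have more than 1 start). GGGCGG was in 61.1% of them and in 35.7% of the 32851 regions of all genes, CCAAT in 36.1% and 37.4%, and TATAAA in 13.9% and 13.6%. These matches describe the letters only.

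Col18a1 and Col15a1, the basement membrane chains of the multiplexin type, showed the largest rises in both kinds of tumor, and Col8a2, Col4a6, Col13a1 and Col23a1 were among the largest falls. Col4a1, Col1a2, Col3a1 and Col6a1, which gave bright signals in all groups, were not called in either. Against control lung, spontaneous tumors had 6 collagens higher and 8 lower of 42 (14.3% and 19.0%) at an adjusted p under 0.05 in limma, while 20.1% of all genes were higher and 12.9% lower. Antimony trioxide tumors had 5 higher and 10 lower (11.9% and 23.8%), against 23.8% and 15% of all genes. The share called in either direction, 33.3% and 35.7%, was close to that of all genes, 33.0% and 38.8%. With all 18 arrays the counts were 1 higher and 1 lower in spontaneous tumors (0.973% and 3.19% of all genes) and 3 higher and 4 lower in antimony trioxide tumors (2.98% and 4.44% of all genes). The median difference of the 42 was 0.14 in spontaneous and −0.09 in antimony trioxide tumors, beside 0.12 and 0.09 for all genes. The comparisons with control share the control arrays, and their values stand side by side below.

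**Figure D1:**
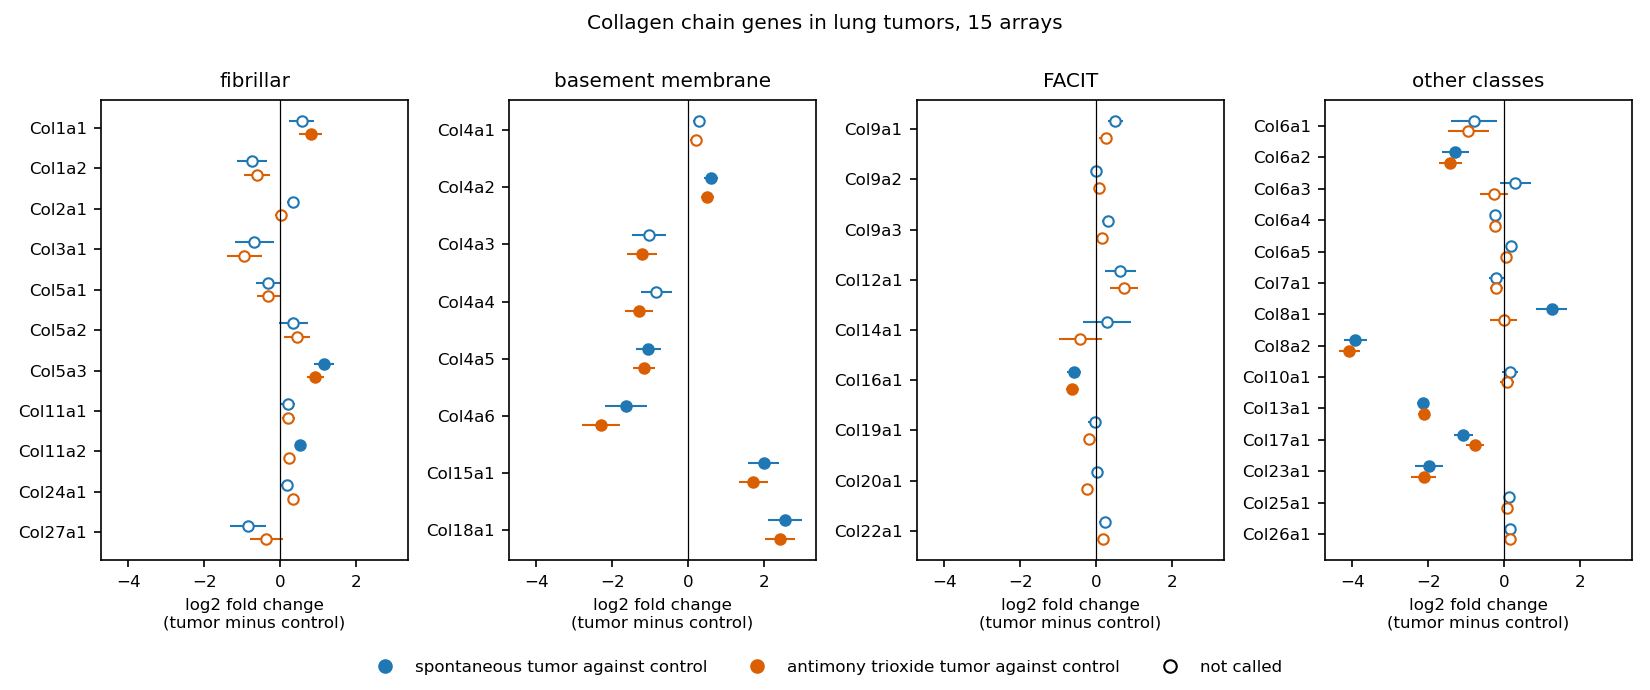
Log2 fold change with SE (horizontal axis) of the 42 collagen chain genes by class, spontaneous tumors (blue) and antimony trioxide tumors (orange) against control lung, 15 arrays; filled points were called at an adjusted p under 0.05. Col18a1 and Col15a1 lie farthest to the right and Col8a2 farthest to the left, and the FACIT class has 1 called member, Col16a1.

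Of the 11 fibrillar chains 2 were higher and none was lower in each tumor group. The share higher, 18.2%, stands beside 20.1% and 23.8% of all genes. Of all genes 12.9% and 15% were lower. At an unadjusted p under 0.05 in limma there were 3 and 4 of the 11, beside 7830 and 8502 of the 18193 genes. Col1a1, the α1 chain of type I and the main protein of scar and bone, was at 9.98, 11.17, 10.39, 10.20 and 11.21 in the control arrays, 11.11, 11.40, 11.60 and 10.52 in the spontaneous tumors and 10.62 to 12.12 (median 11.44) in the antimony trioxide tumors. The ranges overlap, with 3 control arrays below every tumor array. The difference was 0.57 ± 0.34 (adjusted p = 0.215) in spontaneous tumors and 0.81 ± 0.30 (adjusted p = 0.0456) in antimony trioxide tumors, and over 18 arrays 0.30 (adjusted p = 0.908) and 1.52 (adjusted p = 0.344). The call in antimony trioxide tumors was lost in 9 of the 15 fits that left out 1 array, without CONTROL replicates 1, 3 or 4 or TREATED replicates 1, 2, 3 or 5 or SPONT replicates 1 or 2 (difference 0.66 to 0.97 and adjusted p up to 0.125 over the 15). The second probe set for the gene differed by 0.12 and 0.21.

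Col1a2, the α2 chain that joins Col1a1 in type I, read 11.40, 12.50, 11.64, 11.51 and 12.57 in control lung, 10.68, 11.82, 11.57 and 10.65 in spontaneous tumors and 10.24 to 12.25 (median 11.34) in antimony trioxide tumors. The groups overlap, and its differences of −0.74 ± 0.39 (adjusted p = 0.163) and −0.61 ± 0.35 (adjusted p = 0.193) were not called. Over 18 arrays they were −0.97 (adjusted p = 0.675) and 0.08 (adjusted p = 0.955). Its next brightest probe set differed by 0.03 and 0.49 and its dimmest by −0.65 and −0.43, so its probe sets do not share a sign. Col3a1, the chain of the thin type III fibers of lung and vessel walls, read 10.61, 12.23, 11.04, 10.71 and 12.14, then 10.11, 11.23, 11.07 and 10.27, then 8.88 to 11.89 (median 10.38) in the same order of groups. Its antimony trioxide tumors spanned the widest range of any fibrillar chain there, and the differences of −0.68 ± 0.51 (adjusted p = 0.338) and −0.94 ± 0.46 (adjusted p = 0.122) were not called.

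Type V chains sit inside type I fibrils and limit their width. Col5a3 was the fibrillar chain called in both tumor groups: control arrays read 5.36, 6.41, 6.21, 5.40 and 6.06, spontaneous tumors 6.73, 7.27, 7.07 and 7.12 and antimony trioxide tumors 6.40 to 7.57 (median 6.82). Spontaneous tumors lay above every control array, and the lowest antimony trioxide tumor fell just under the highest control. The difference was 1.16 ± 0.25 (adjusted p = 0.00255) and 0.93 ± 0.23 (adjusted p = 0.00433), and it was called over 18 arrays as well, at 1.35 (adjusted p = 0.0098) and 1.07 (adjusted p = 0.0297). Its level is below that of the median gene, and the dimmer second probe set differed by 0.20 and 0.48. Col5a1 read 8.74, 9.52, 9.09, 8.65 and 9.34 in control lung, 8.60, 9.45, 9.12 and 7.88 in spontaneous and 8.11 to 9.70 (median 8.66) in antimony trioxide tumors, with overlapping groups and differences of −0.31 ± 0.34 (adjusted p = 0.518) and −0.32 ± 0.30 (adjusted p = 0.448), which over 18 arrays were −0.53 (adjusted p = 0.794) and 0.24 (adjusted p = 0.835). The other Col5a1 probe sets lay above control in both tumor groups, by 0.26 to 0.40, so its probe sets do not share a sign. Col5a2 was at 0.35 ± 0.39 (adjusted p = 0.524) and 0.45 ± 0.35 (adjusted p = 0.351), also not called.

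The cartilage fibrillar chains were dim. Col11a2, which forms part of the type XI fibril, ranged from 5.18 to 5.46 in control lung, 5.67 to 6.03 in spontaneous tumors and 5.34 to 5.73 in antimony trioxide tumors. It was higher in spontaneous tumors by 0.52 ± 0.11 (adjusted p = 0.0022), with no overlap, and at 0.24 ± 0.10 (adjusted p = 0.0743) in antimony trioxide tumors. Over 18 arrays the first difference was 0.38 (adjusted p = 0.77). Col2a1, Col11a1 and Col24a1 differed from control by 0.01 to 0.35 with no call. Of 7 cartilage markers 2 were higher in both tumor groups (28.6%, beside 20.1% and 23.8% of all genes). Sox9, a transcription factor of cartilage and of lung epithelial progenitors, was higher by 4.34 ± 0.77 and 4.76 ± 0.69. Hapln1 was higher by 0.93 ± 0.26 and 1.00 ± 0.23. Acan, Comp and Matn1, which define cartilage, averaged 5.66, 6.06 and 2.37 in control lung and were within 0.17 of those means in both tumor groups. Col27a1 was at −0.85 ± 0.48 (adjusted p = 0.194) and −0.36 ± 0.44 (adjusted p = 0.556), with 1 spontaneous tumor at 8.32 and the other 3 at 5.87 to 6.26.

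Of the 8 basement membrane chains 5 were called in spontaneous and 7 in antimony trioxide tumors (62.5% and 87.5%, beside 33.0% and 38.8% of all genes), in both directions. Over 18 arrays 0 and 3 of the 8 were called. Col18a1, the source of endostatin, read 8.30, 8.79, 8.27, 7.71 and 8.90 in control lung, 11.91, 10.20, 9.93 and 11.80 in spontaneous tumors and 9.86 to 11.66 (median 10.73) in antimony trioxide tumors. Each tumor lay above each control array. The difference was 2.56 ± 0.44 (adjusted p = 0.000471), 5.91-fold, and 2.43 ± 0.40 (adjusted p = 0.000222), 5.4-fold, and its second probe set differed by 2.49 and 2.5. Over 18 arrays it was 1.95 (adjusted p = 0.0656) in spontaneous tumors, which was not called, and 2.63 (adjusted p = 0.00675) in antimony trioxide tumors.

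Col15a1, the other chain of the same class, read 6.49, 8.02, 6.70, 7.58 and 7.57 in control lung, 8.85, 9.62, 9.19 and 9.40 in spontaneous tumors and 7.66 to 10.15 (median 9.19) in antimony trioxide tumors. Spontaneous tumors did not overlap with control, while the lowest antimony trioxide tumor lay inside the control range. It was higher by 1.99 ± 0.42 (adjusted p = 0.00201) and 1.72 ± 0.38 (adjusted p = 0.00209), or 3.98-fold and 3.3-fold. Over 18 arrays the differences were 1.81 (adjusted p = 0.0585) and 2.08 (adjusted p = 0.0174). Both calls held in each of the 15 fits that left out 1 array, as did those of Col18a1.

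The type IV chains did not move together. Col4a1, one of the brightest members, read 12.31, 12.64, 12.34, 11.84 and 12.43 in control lung, 12.54, 12.75, 12.55 and 12.58 in spontaneous tumors and 12.16 to 12.79 (median 12.60) in antimony trioxide tumors, and its differences of 0.29 ± 0.16 (adjusted p = 0.172) and 0.20 ± 0.14 (adjusted p = 0.283) were not called. Over 18 arrays they were −0.46 (adjusted p = 0.856) and 0.75 (adjusted p = 0.643). The second, dimmer probe set of Col4a1 differed by 0.51 and 0.32, nearer to the differences of Col4a2 that follow. Col4a2, its partner in the common network, ranged from 10.7 to 11.9 in control lung, 11.8 to 12.1 in spontaneous tumors and 11.4 to 12.0 in antimony trioxide tumors. It was higher by 0.60 ± 0.19 (adjusted p = 0.023) and 0.51 ± 0.17 (adjusted p = 0.028). The first call was lost in 3 of the 15 fits that left out 1 array, without CONTROL replicates 1 or 4 or SPONT replicate 2 (difference 0.47 to 0.75 and adjusted p up to 0.0637 over the 15). The second was lost in 6, without CONTROL replicates 1, 3 or 4 or TREATED replicates 3, 4 or 6 (difference 0.37 to 0.66 and adjusted p up to 0.0818 over the 15). Over 18 arrays the values were 0.18 (adjusted p = 0.945) and 1.09 (adjusted p = 0.523).

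The α3, α4 and α5 chains assemble together and are mutated in Alport syndrome in humans. All 3 were called lower in antimony trioxide tumors, and Col4a5 in spontaneous tumors. Col4a3 and Col4a4 also lay below control in spontaneous tumors, without a call. In the fit the 3 groups share the estimate of spread. The SD of Col4a3 was 0.27 in CONTROL, 0.47 in SPONT and 1.04 in TREATED, and that of Col4a4 0.23, 0.35 and 0.99. Without TREATED replicate 2 Col4a3 was called lower in spontaneous tumors too. Col4a3 read 10.39, 10.94, 10.71, 10.29 and 10.41 in control lung, 8.94, 10.08, 9.57 and 9.47 in spontaneous tumors and 8.0 to 10.34 (median 9.73) in antimony trioxide tumors. Each spontaneous tumor was below each control array and 1 antimony trioxide tumor was not. The difference was −1.03 ± 0.44 (adjusted p = 0.0861), not called, and −1.21 ± 0.40 (adjusted p = 0.0256), which was lost in 4 of 15 fits leaving out 1 array, without CONTROL replicates 2 or 3 or TREATED replicates 2 or 5 (difference −1.41 to −0.94 and adjusted p up to 0.0586 over the 15). Col4a4 read 10.72, 10.33, 10.71, 10.26 and 10.32 in control lung, 9.48, 10.16, 9.42 and 9.49 in spontaneous tumors and 7.93 to 10.06 (median 9.60) in antimony trioxide tumors, with both tumor groups below each control array. Its difference was −0.83 ± 0.41 (adjusted p = 0.134), not called, and −1.29 ± 0.37 (adjusted p = 0.0122). TREATED replicates 2 and 5 were the lowest arrays for both genes, at 8.0 and 8.12 for Col4a3 and 7.93 and 7.98 for Col4a4.

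Col4a5 read 9.88, 10.07, 10.06, 10.11 and 9.89 in control lung, 9.38, 8.60, 8.98 and 8.87 in spontaneous tumors and 7.54 to 9.74 (median 8.99) in antimony trioxide tumors, with no overlap of either tumor group with control. It was lower, at −1.04 ± 0.33 (adjusted p = 0.0236) and −1.16 ± 0.30 (adjusted p = 0.00599), and the first call was lost in 2 of 15 fits leaving out 1 array, without SPONT replicates 2 or 4 (difference −1.19 to −0.93 and adjusted p up to 0.067 over the 15). Col4a6, found with Col4a5 in smooth muscle and some epithelial basement membranes, read 7.76, 7.89, 7.81, 8.48 and 7.72 in control lung, 8.21, 5.65, 5.12 and 6.20 in spontaneous tumors and 4.57 to 7.36 (median 5.43) in antimony trioxide tumors. SPONT replicate 1 lay inside the control range and the other tumors below it. The difference was −1.64 ± 0.56 (adjusted p = 0.0346), and −2.30 ± 0.50 (adjusted p = 0.00207). The first call was lost in 7 of 15 fits leaving out 1 array, without CONTROL replicates 1, 2, 3 or 4 or SPONT replicates 2, 3 or 4 (difference −2.28 to −1.24 and adjusted p up to 0.117 over the 15), and the second in 0 of 15. Over 18 arrays Col4a3, Col4a4 and Col4a5 were not called in either group, at −1.99 (adjusted p = 0.257), −1.18 (adjusted p = 0.556) and −0.92 (adjusted p = 0.672) in spontaneous tumors and −0.78 (adjusted p = 0.657), −0.67 (adjusted p = 0.669) and −0.37 (adjusted p = 0.784) in antimony trioxide tumors. Col4a6 over 18 arrays was at −1.32 (adjusted p = 0.184) and −2.08 (adjusted p = 0.0119). The further probe sets of Col4a3, Col4a4, Col4a5 and Col4a6 lay below control in both groups as well, by −2.45 to −0.70. Endothelial, fibroblast, smooth muscle and ciliated cell markers and some alveolar type 1 markers were lower in the same samples, as given above. Most alveolar type 2 markers were higher. The part of these shifts in the type IV differences was not tested.

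**Figure D2:**
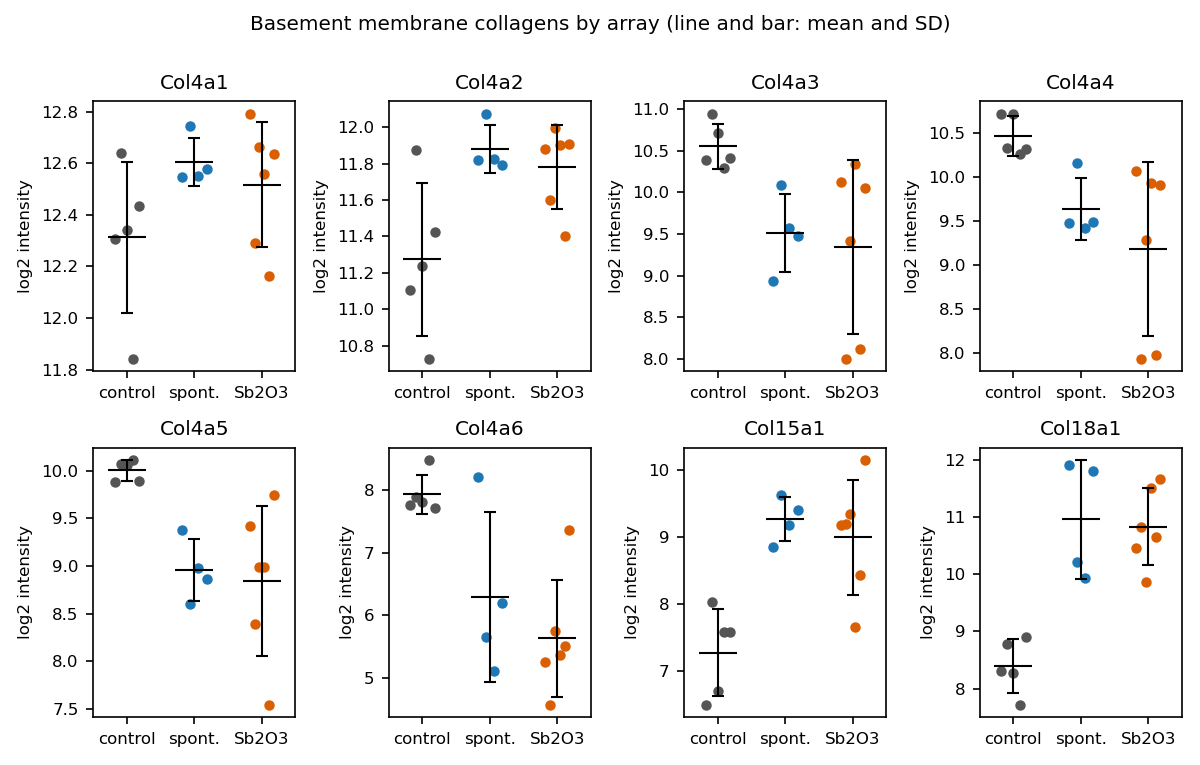
Log2 intensity per array (vertical axis, its range differing by panel) of the 8 basement membrane chains in control lung, spontaneous tumors and antimony trioxide (Sb2O3) tumors; points are arrays, lines and bars the mean and SD. Col18a1 separates each tumor from each control array, Col4a4 and Col4a5 separate them downward, and Col4a1 overlaps in all groups.

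Among the 9 FACIT chains 1 was called in each tumor group (11.1%, beside 33.0% and 38.8% of all genes). Col16a1, which is found near fibrils and basement membranes, read 8.25, 8.59, 8.08, 8.29 and 8.36 in control lung, 7.66, 8.11, 7.95 and 7.17 in spontaneous tumors and 7.42 to 8.05 (median 7.63) in antimony trioxide tumors. The highest spontaneous tumor touched the control range and the antimony trioxide tumors lay below it. It was lower, at −0.59 ± 0.18 (adjusted p = 0.0215) and −0.63 ± 0.16 (adjusted p = 0.00689), and the first call was lost in 3 of 15 fits leaving out 1 array, without CONTROL replicate 2 or SPONT replicates 1 or 4 (difference −0.72 to −0.40 and adjusted p up to 0.0809 over the 15). Over 18 arrays the values were −0.32 (adjusted p = 0.761) and −0.62 (adjusted p = 0.31). Col12a1, a chain of tissue under tension, was at 0.64 ± 0.41 (adjusted p = 0.249) and 0.73 ± 0.37 (adjusted p = 0.131), not called. Col14a1 had the widest spread of any member in spontaneous tumors, 8.39, 6.59, 6.07 and 9.35, and differed by 0.29 ± 0.62 (adjusted p = 0.754) and −0.41 ± 0.56 (adjusted p = 0.606). Col9a1, Col9a2, Col9a3, Col19a1, Col20a1 and Col22a1 differed by −0.24 to 0.51 with no call, by the probe set used. For Col19a1 a dimmer probe set differed by −0.81 and −0.88, and another by −0.35 and −0.24.

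Type VI collagen forms beaded filaments around cells from the α1, α2 and α3 chains. Col6a2 read 9.83, 10.67, 10.19, 9.88 and 10.43 in control lung, 8.29, 9.84, 9.20 and 8.33 in spontaneous tumors and 8.13 to 9.81 (median 8.70) in antimony trioxide tumors. Antimony trioxide tumors lay just below every control array, and 1 spontaneous tumor touched the control range. It was lower, at −1.28 ± 0.35 (adjusted p = 0.0103) and −1.41 ± 0.31 (adjusted p = 0.00224), and over 18 arrays at −1.23 (adjusted p = 0.538) and −0.64 (adjusted p = 0.678). Col6a1, which lies beside it on chromosome 10, read 9.97, 11.27, 10.06, 9.76 and 10.82 in control lung, 8.08, 10.85, 10.51 and 8.89 in spontaneous tumors and 8.59 to 10.92 (median 9.07) in antimony trioxide tumors, overlapped, and differed by −0.80 ± 0.60 (adjusted p = 0.332) and −0.95 ± 0.54 (adjusted p = 0.183) with no call. Col6a3 was at 0.30 ± 0.42 (adjusted p = 0.619) and −0.27 ± 0.38 (adjusted p = 0.61). Col6a4 and Col6a5 were dim and not called, at −0.25 to 0.19.

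Type VIII collagen makes the hexagonal lattice of vessel walls and of Descemet's membrane in the eye. Col8a2 gave the largest difference of the 42: control arrays read 8.64, 7.72, 7.87, 9.05 and 8.30, spontaneous tumors 4.02, 5.19, 4.24 and 4.10 and antimony trioxide tumors 3.56 to 4.71 (median 4.26). Each tumor lay far below each control array. The mean level was above that of 60.9% of genes in control lung, but of 10.7% in spontaneous and 9.71% in antimony trioxide tumors, near the low end of the array, so the folds that follow may be lower bounds. It was lower, at −3.93 ± 0.30 (adjusted p = 3.58e-07), 15.2-fold, and −4.08 ± 0.27 (adjusted p = 5.43e-08), 16.9-fold, and was called over 18 arrays at −2.82 (adjusted p = 0.00447) and −3.60 (adjusted p = 0.000311). Its partner Col8a1 did not follow: control arrays read 8.16, 7.77, 8.32, 8.49 and 8.66, spontaneous tumors 8.66, 10.03, 10.22 and 9.23 and antimony trioxide tumors 7.02 to 9.12 (median 8.49). The lowest spontaneous tumor and the highest control array both read 8.66. Col8a1 was higher by 1.26 ± 0.40 (adjusted p = 0.0265) in spontaneous tumors, a call lost in 4 of 15 fits leaving out 1 array, without CONTROL replicates 1 or 2 or SPONT replicates 2 or 3 (difference 1.03 to 1.55 and adjusted p up to 0.0878 over the 15), and over 18 arrays, where it was 0.86 (adjusted p = 0.657). It was at −0.01 ± 0.37 (adjusted p = 0.984) in antimony trioxide tumors. Col10a1, the short chain of growth plate cartilage, was at 0.16 ± 0.21 (adjusted p = 0.602) and 0.08 ± 0.19 (adjusted p = 0.788).

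Transmembrane collagens are held in the cell membrane and shed from it. Col13a1, found at cell adhesions and at the neuromuscular junction, read 7.73, 8.07, 7.79, 7.64 and 7.21 in control lung, 5.62, 5.87, 5.42 and 5.32 in spontaneous tumors and 5.35 to 5.84 (median 5.56) in antimony trioxide tumors. Each tumor lay below each control array, and the tumors spread no wider than the controls. It was lower, at −2.13 ± 0.16 (adjusted p = 3.58e-07), 4.38-fold, and −2.12 ± 0.15 (adjusted p = 7.46e-08), 4.34-fold. Over 18 arrays the values were −1.23 (adjusted p = 0.132) and −1.75 (adjusted p = 0.0135). Col23a1 read 9.09, 9.12, 8.78, 9.30 and 8.91 in control lung, 8.21, 6.96, 6.75 and 6.31 in spontaneous tumors and 6.05 to 7.61 (median 7.04) in antimony trioxide tumors, with no overlap. It was lower, at −1.98 ± 0.36 (adjusted p = 0.000705) and −2.12 ± 0.33 (adjusted p = 0.000123), its other 2 probe sets at −2.34 to −2.04, and over 18 arrays it was at −1.25 (adjusted p = 0.183) and −1.72 (adjusted p = 0.0284). Col17a1, the hemidesmosome collagen of basal epithelial cells, ranged from 5.80 to 6.81 in control lung, 4.77 to 5.86 in spontaneous tumors and 5.13 to 6.22 in antimony trioxide tumors, and was lower, at −1.07 ± 0.26 (adjusted p = 0.00532) and −0.77 ± 0.23 (adjusted p = 0.017). The second call was lost without CONTROL replicate 3 (difference −0.92 to −0.67 and adjusted p up to 0.0511 over the 15). Over 18 arrays it was at −0.14 (adjusted p = 0.932) and −0.79 (adjusted p = 0.464). Col25a1, a neuronal chain, was at 0.13 ± 0.10 (adjusted p = 0.318) and 0.09 ± 0.09 (adjusted p = 0.471). Col7a1, the anchoring fibril chain of skin, was at −0.21 ± 0.19 (adjusted p = 0.44) and −0.20 ± 0.17 (adjusted p = 0.388), and Col26a1 at 0.15 in both.

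**Figure D3:**
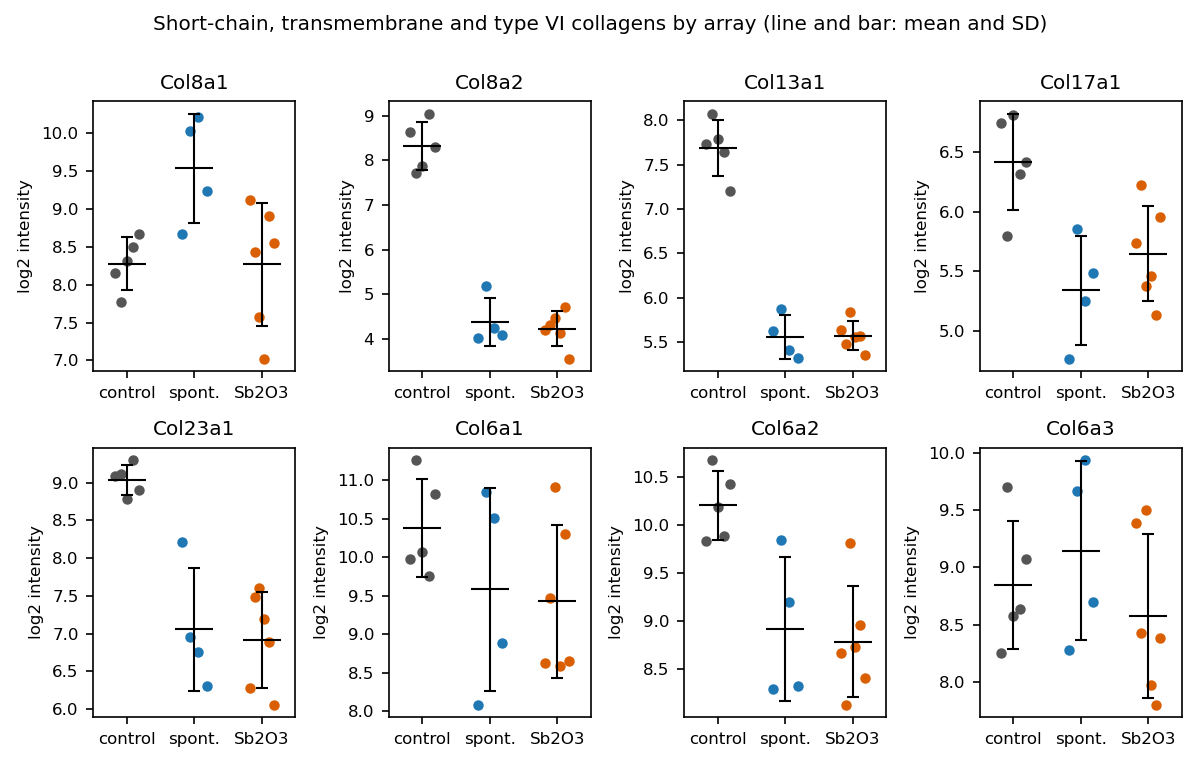
Log2 intensity per array (vertical axis, its range differing by panel) of 8 short-chain, transmembrane and type VI chains in control lung, spontaneous tumors and antimony trioxide (Sb2O3) tumors; points are arrays, lines and bars the mean and SD. Col8a2, Col13a1 and Col23a1 separate all tumors from all control arrays, and Col8a1 is raised in spontaneous tumors, without a called difference between the tumor groups.

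None of the 42 differed between antimony trioxide and spontaneous tumors in limma at an adjusted p under 0.05, beside 10 of all genes (0.0550%) and 0 over 18 arrays (0% of all genes). At an unadjusted p under 0.05 there were 3 collagens and 1571 genes in all. Col8a1 had the largest of these differences, −1.27 ± 0.39 (adjusted p = 0.33): spontaneous tumors had 8.66, 9.23, 10.03 and 10.22 and antimony trioxide tumors 7.02 to 9.12. Col11a2 was at −0.28 ± 0.11 (adjusted p = 0.455) and Col2a1 at −0.33 ± 0.15 (adjusted p = 0.567). A p above the threshold does not show that the tumors were alike: the SE of this difference reached 0.60, for Col14a1.

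Chains of 1 molecule or gene pair were also compared within each array, over 16 pairs and 3 comparisons, with exact two-sided permutation tests adjusted over the 48. The level of a probe set cannot be set against another, so each within-array difference is given relative to its control mean, and a shift shows that the chains changed unequally. The smallest p the arrays allow is 0.00794 for spontaneous tumors, 0.00216 for antimony trioxide tumors against control and 0.00476 between tumors. The 48 tests are not independent, since several pairs subtract the same Col1a1, Col4a1 or Col5a1 probe set and both tumor groups share the control arrays. Of the 48, 16 had an adjusted p under 0.05, and 20 an unadjusted one. With all 18 arrays 9 did, and with the mean of each gene's probe sets, or the probe set of the largest SD, 10. Without CONTROL replicate 4 none had one, without another single control array 5 to 7 did and without any single spontaneous tumor 6 did. Fewer arrays also raise the smallest p that the test allows.

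Col1a2 relative to Col1a1 was −0.09 to 0.09 in the control arrays, −1.76, −0.91, −1.36 and −1.20 in the spontaneous tumors and −1.77 to −1.10 in the antimony trioxide tumors. The groups were well apart, with shifts of −1.31 (exact permutation, adjusted p = 0.0317) and −1.42 (exact permutation, adjusted p = 0.0260). With the mean of the probe sets the shifts were −0.80 and −0.69, still called, and over 18 arrays −1.28 and −1.44, called as well. The shift depends on the probe sets compared. The next brightest Col1a2 probe set differed from control by 0.03 and 0.49, and the second Col1a1 probe set by 0.12 and 0.21. Set against each other, those probe sets show no such shift. The dimmest Col1a2 probe set differed by −0.65 and −0.43, the same sign as the one used. Col3a1 relative to Col1a1 shifted by −1.24 and −1.75 (exact permutation, adjusted p = 0.0317 and 0.0260), and by −0.97 and −1.23 with the mean of the probe sets. With the probe set of the largest SD the shifts were −0.69, called, and −0.71 (exact permutation, adjusted p = 0.148), and over 18 arrays the first was −0.77 and not called. Col5a1 relative to Col1a1 shifted by −0.87 and −1.13 with the same adjusted p, but by −0.25 and −0.40 with no call when probe sets were averaged, and by −0.42 and −0.53 with no call for the probe set of the largest SD. The first was −0.83 over 18 arrays and not called.

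Col4a3 relative to Col4a1 was −0.26 to 0.21 in control lung, −1.84, −0.90, −1.22 and −1.34 in spontaneous tumors and −2.52 to −0.46 in antimony trioxide tumors, shifts of −1.32 and −1.41 (exact permutation, adjusted p = 0.0317 for both). Col4a5 relative to Col4a1 shifted by −1.34 and −1.36 with the same adjusted p, and over 18 arrays by −0.46 and −1.12 with no call. Among head-to-head partners, Col4a4 shifted relative to Col4a3 by 0.20 and −0.08, not called. Col4a2 shifted relative to Col4a1 by 0.31 and 0.30, and the second was called (exact permutation, adjusted p = 0.0346). That call was lost with the mean of the probe sets (0.25) and with the probe set of the largest SD (0.19). Col4a6 shifted relative to Col4a5 by −0.59 and −1.14, not called. Col8a2 relative to Col8a1 gave the largest shifts, −5.19 and −4.07 (exact permutation, adjusted p = 0.0317 and 0.0260), and −3.68 and −4.08 over 18 arrays, called as well. Col5a2 shifted relative to Col5a1 in antimony trioxide tumors by 0.76 (exact permutation, adjusted p = 0.0346), and Col6a3 relative to Col6a1 in spontaneous tumors by 1.09 (exact permutation, adjusted p = 0.0476). Both calls were lost over 18 arrays, with averaged probe sets and with the probe set of the largest SD (adjusted p of 0.0567 to 0.492 and 0.0559 to 0.0635). Between tumors Col9a2 shifted relative to Col9a1 by 0.34, from dim probe sets, which was not called with averaged probe sets and was −0.43 over 18 arrays with no call.

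**Figure D4:**
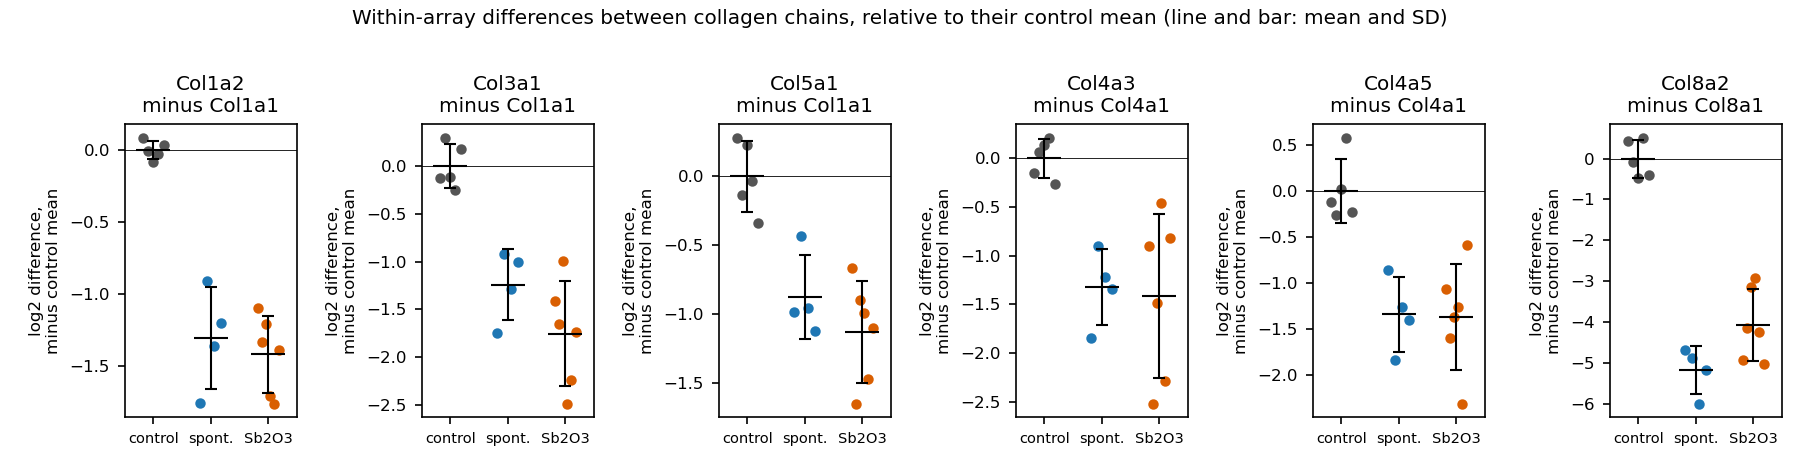
Within-array log2 difference between 2 chains relative to its control mean (vertical axis, range differing by panel) in control lung, spontaneous tumors and antimony trioxide (Sb2O3) tumors; points are arrays, lines and bars the mean and SD. In all 6 panels each tumor lies below each control array.

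Collagens spread more than the median gene within each group. The median SD across arrays of a group was 0.31 for collagens and 0.21 for all genes in control lung, 0.38 and 0.24 in spontaneous tumors, and 0.41 and 0.25 in antimony trioxide tumors. The bright fibrillar and type VI members, 8 in number, ranked the arrays alike within a group. TREATED replicate 3 was the highest antimony trioxide tumor for 8 of 8 and replicate 4 the lowest for 6. CONTROL replicate 2 was the highest control array for 6 of 8, and SPONT replicates 2 and 3 shared the highest place among spontaneous tumors at 5 and 3.

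Genes that make, export, trim, cross-link or bind collagen were read from 5 lists, 39 genes measured of 44. In spontaneous tumors 9 were higher and 13 lower (23.1% and 33.3%, beside 20.1% and 12.9% of all genes), and in antimony trioxide tumors 8 and 12 (20.5% and 30.8%, beside 23.8% and 15% of all genes). In chain modification 6 of 15 were higher and 2 lower in spontaneous tumors, 4 and 2 in antimony trioxide tumors. Colgalt2, which adds galactose to hydroxylysine, was lower, at −0.98 ± 0.20 and −1.37 ± 0.18. Of 5 chaperone and export genes 1 was higher and 1 lower in each group. Creb3l1, a membrane-bound transcription factor that drives collagen genes in bone, averaged 8.37 in control lung, 10.56 in spontaneous and 10.73 in antimony trioxide tumors, higher by 2.18 ± 0.25 and 2.35 ± 0.23 (limma, adjusted p = 1.47e-05 and 1.77e-06). Serpinh1, the collagen chaperone, was at −0.03 ± 0.24 and −0.37 ± 0.22, not called.

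Among 6 procollagen processing genes 1 was higher and 3 lower in each group. Pcolce2, an enhancer of C-propeptide removal, averaged 12.36 in control lung, 7.51 in spontaneous tumors and 6.56 in antimony trioxide tumors, lower, at −4.85 ± 0.75 and −5.80 ± 0.67 (limma, adjusted p = 0.000176 and 9.77e-06). Its paralog Pcolce was lower, at −2.06 ± 0.33 and −1.25 ± 0.30, while Bmp1, the protease they assist, was higher by 1.09 ± 0.18 and 0.96 ± 0.16. Of 5 cross-linking genes 3 were lower and 1 higher in each group. Lox, Loxl1 and Pxdn, whose protein cross-links type IV, were the lower ones, at −1.99, −1.64 and −1.39 in spontaneous and −1.77, −1.99 and −1.42 in antimony trioxide tumors, and Loxl3 was higher by 1.20 ± 0.14 and 0.86 ± 0.13. Of 8 collagen receptors 4 were lower in spontaneous tumors and 3 lower and 1 higher in antimony trioxide tumors. Itga1, the α1 integrin chain that binds type IV, was lower, at −1.28 ± 0.20 and −1.62 ± 0.18. Itga2, the α2 chain that binds type I, was at −0.08 ± 0.71 and higher by 1.78 ± 0.64 in antimony trioxide tumors. Lox, Loxl1, Pxdn, Serpinh1, Itga2, Sftpc and Comp fall outside the rule for named genes and were chosen after their values were seen. Over 18 arrays 0 genes of these lists were higher and 3 lower in spontaneous tumors, and 2 each way in antimony trioxide tumors.

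**Figure D5:**
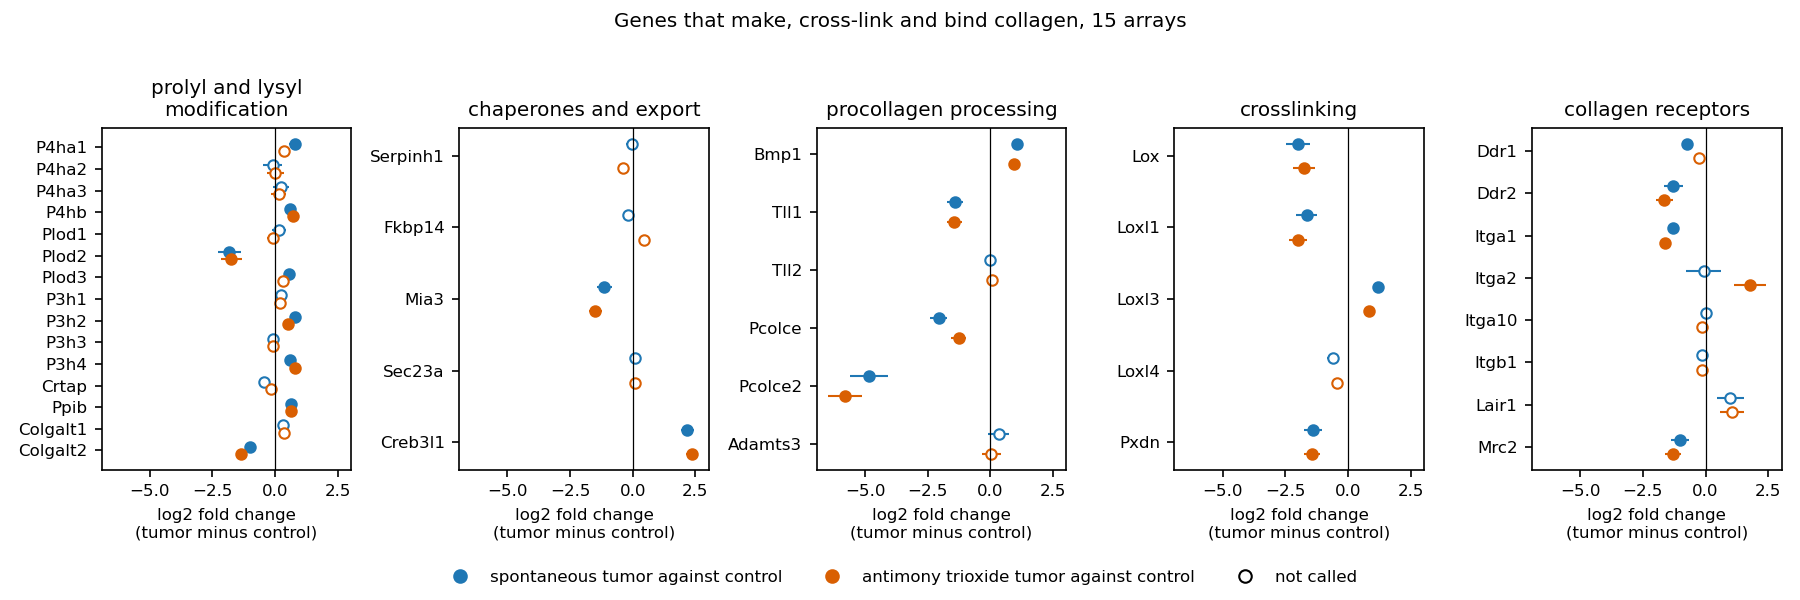
Log2 fold change with SE (horizontal axis) of 39 collagen making, processing, cross-linking and receptor genes in spontaneous (blue) and antimony trioxide (orange) tumors against control lung, 15 arrays; filled points were called at an adjusted p under 0.05. Creb3l1, Bmp1 and Loxl3 lie to the right in both, and Pcolce2 lies farthest to the left.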

How the data were processed

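The deposited values are log2 intensities of 45101 probe sets on 18 arrays, made by the authors with RMA per the submitters' processing notes; the RMA version is not given in the sources used here. RMA scales arrays jointly and shrinks probe sets whose probes disagree; whether the 18 were processed together is not given in the sources used here. Of the probe sets 34945 had 1 gene symbol in the platform annotation, 932 several and 9160 none, and 18193 genes were tested, each by its probe set with the highest mean over the 15 arrays used. limma 3.58.1 fitted 1 mean per group, with Benjamini-Hochberg adjustment over all genes. Chain pairs were tested by exact permutation. The fit was checked on simulated data. The submitters' ORIOGEN test was not run. The members and lists were chosen with earlier results of these data known. Values per array are given for called chains among the 4 largest differences of their class and for their partners, and up to 6 genes with the smallest p of each other list are named. Alternatives changed the arrays, scaling, probe sets, model, covariates and thresholds. Symbols Col6a6, Col21a1 and Col28a1 were not analysed here.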

Additional observations from a re-analysis of the deposited data

Results flagged for a closer look

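Over the 42 collagens and 3 groups, 126 groups of arrays were examined for a highest or lowest array whose gap to the nearest other filled most of the group's range (Dixon's 95% criterion). The criterion was met 10 times, and chance meets it in about 1 in 20 groups. SPONT replicate 2 was the highest spontaneous tumor for 3 type IV genes, at 12.7 for Col4a1 (others 12.5 to 12.6), 12.1 for Col4a2 (others 11.8) and 10.2 for Col4a4 (others 9.42 to 9.49). Col27a1 stood out in both tumor groups, at 8.32 in SPONT replicate 4 (others 5.87 to 6.26) and 8.67 in TREATED replicate 6 (others 6.43 to 7.15). CONTROL replicate 4 read 8.48 for Col4a6 (others 7.72 to 7.89) and 6.15 for Col7a1 (others 6.50 to 6.58). TREATED replicate 3 read 6.99 for Col7a1 (others 5.91 to 6.22), TREATED replicate 2 read 5.56 for Col11a1 (others 4.77 to 5.07), and TREATED replicate 5 read 6.63 for Col10a1 (others 5.31 to 5.62).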

How the results depend on the processing

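Keeping all 18 arrays left 1 collagen higher and 1 lower in spontaneous tumors (main 6 and 8), 3 higher and 4 lower in antimony trioxide tumors (main 5 and 10) and 9 chain shifts (main 16). The lower count in spontaneous tumors was 4 among genes at or above the median mean, where 24 members are not tested, 5 with the actin 3′ to 5′ difference as a covariate, 4 with the Y-linked mean as a covariate and 4 at an adjusted p under 0.01. In antimony trioxide tumors the higher count was 3 by the exact permutation test, 3 at an adjusted p under 0.01 and 2 with a 2-fold minimum. The lower count there was 6 among genes at or above the median mean and 4 with the Y-linked mean. The Y-linked mean was 8.69 to 8.89 in CONTROL, 8.91 to 9.41 in SPONT and 8.60 to 9.49 in TREATED. CONTROL and SPONT do not overlap in it, so as a covariate it partly stands for group. Chain shifts numbered 10 with the mean of the probe sets and 10 with the probe set of the largest SD. The cause of these changes was not tested, other than the smaller set of genes. Leaving out 1 array gave 4 to 8 higher and 6 to 9 lower in spontaneous tumors, 3 to 6 and 8 to 12 in antimony trioxide tumors, and 0 (without CONTROL replicate 4) to 17 chain shifts, with 5 to 7 without another control array and 6 without any 1 spontaneous tumor. Of the called members 9 of 14 and 11 of 15 stayed called in each of these fits. The shift of Col9a2 relative to Col9a1 between tumors turned to −0.434 with 18 arrays. Deviations of same-numbered arrays from their group means correlated at −0.149 to 0.298. Differently numbered arrays were not compared, so whether the replicate numbers pair the arrays cannot be told. A fit with the number as a block gave 7 higher and 7 lower in spontaneous and 5 and 9 in antimony trioxide tumors. Quantile normalization gave 8 and 8, and 5 and 10. Fitting 2 groups at a time, so that the third group adds nothing to the spread, gave 6 and 10, and 4 and 10. Median centring and a trended robust variance gave the main counts. Between the tumor groups 0 collagens were called under all of these settings.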
